A study of Mus musculus with 10 samples.

Results

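The genes described here encode the receptors of the colony-stimulating factors that govern macrophages, and ligands of those receptors: Csf1r, Csf1, Il34, Csf2ra and Csf2rb. These 5 genes were chosen by name, and all 5 were listed among the 23202 genes of the macrophage table and the 19720 genes of the whole-tumor table. Libraries came from MMTV-PyMT mice on a B6 background, in which the MMTV promoter drives the polyoma middle T oncogene mainly in mammary epithelium. All 6 mice carried Cxcr4 fl/fl alleles, tumors were taken at 15 weeks of age, and the pairs of tumors had been matched in size. The mice labelled cKO (numbers 725, 746 and 867) also carried LysmCre, Cre recombinase under the lysozyme M promoter, which is active in monocytes, macrophages and neutrophils. The controls (706, 720 and 775) were littermates with no Cre. From each of the 6 mice, macrophages sorted from the dissociated tumor by F4/80 and CD11b gave 1 library, and 4 of them (706, 720, 725 and 746) also gave 1 library of the whole tumor.

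CSF1R is a receptor tyrosine kinase on which most tissue and tumor macrophages depend for survival and proliferation. It has 2 ligands unrelated in sequence, CSF1 and IL-34, of which CSF1 is made by many stromal, epithelial and endothelial cells and IL-34 mainly by keratinocytes and neurons. CSF2RA binds the cytokine GM-CSF (encoded by Csf2), and the common beta chain CSF2RB, shared with the receptors of IL-3 and IL-5, carries its signal through JAK2 and STAT5. In PyMT tumors CSF1 is known for recruiting macrophages that aid invasion.

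Levels are given in counts per 1000000 (CPM), and each difference is the mean log2(CPM + 1) of libraries labelled cKO less that of controls. Sequencing depth, worked out from the spacing of the lowest values, was 14.4 to 25.2 in units of 1000000 reads for the macrophage libraries and 34.2 to 53.4 for the tumors. Cxcr4, the targeted gene, was at 14.4, 135 and 54.3 CPM in the macrophage libraries of controls 706, 720 and 775 and at 41.9, 165 and 24.1 CPM in those labelled cKO (725, 746 and 867). In tumors it was at 29.8 and 33.4 CPM in controls 706 and 720 and at 47.9 and 57.6 CPM in cKO 725 and 746. Cxcr4 was thus not lower in the libraries labelled cKO. Which exons the floxed allele removes is not given in the sources used here, and cKO below stands for the label. Summed over 12 macrophage markers, the sorted libraries held 1819 to 2289 CPM, except control 775, which held 944 CPM. Epithelial markers, 12 genes, summed to 3886 to 7574 CPM in the sorted cells, so epithelial RNA was present in these libraries. A large part was 1 casein gene, Csn3, with a mean of 2955 CPM over the 6 libraries. Whether this RNA came from tumor cells in the sort was not tested. The same 12 genes summed to 5507 to 7623 CPM in whole tumors, a range that overlaps. Levels given below for macrophages are those of the sorted libraries, epithelial RNA included. Fibroblast and endothelial markers stood high in cKO 867 (1403 and 321 CPM) and control 775 (555 and 137 CPM), against 70.6 to 190 and 17.7 to 35.0 CPM in the other 4.

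The receptor genes were abundant in sorted macrophages. Csf1r, which lies on the plus strand of chromosome 18 from 61100598 to 61132149 (GRCm38), was at 459, 378 and 155 CPM in controls 706, 720 and 775 and at 350, 451 and 371 CPM in cKO 725, 746 and 867. Control 775 was the lowest library, and the other 5 lay within 350 to 459 CPM, so the groups overlapped. In bulk samples, fewer cells of a type and less RNA per cell cannot be told apart. The span of Csf1r overlaps Hmgxb3, a gene on the opposite strand, by 873 bases in the deposited positions. Hmgxb3 was at 22.1 to 50.3 CPM in sorted macrophages and 17.7 to 28.8 CPM in tumors. Whether the counting used strand is not given in the sources used here, and in tumors the level of Hmgxb3 was as high as that of Csf1r.

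Csf2ra, the binding chain for GM-CSF (chromosome 19, minus strand, 61223957 to 61228429), was at 62.7, 112 and 22.2 CPM in macrophages of controls 706, 720 and 775. In cKO 725, 746 and 867 it was at 61.4, 114 and 79.0 CPM. Control 775 was again the lowest, and control 720 and cKO 746 were the highest and nearly level. Csf2rb (chromosome 15, plus strand, 78325752 to 78353847) was at 128, 125 and 49.4 CPM in controls 706, 720 and 775 and at 88.6, 192 and 195 CPM in cKO 725, 746 and 867. Here cKO 746 and 867 lay above all controls, while cKO 725 lay below controls 706 and 720.

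Csf2rb has a close copy beside it on chromosome 15, Csf2rb2 (minus strand, 78282507 to 78305721), which encodes the beta chain specific to IL-3 in mice. The coding sequences, of 2688 and 2634 bases, were identical at 95.2% of 2628 aligned bases, and 10.7% of the 75-base stretches of the Csf2rb transcript also occur in the Csf2rb2 transcript (GENCODE vM21). A short read from such a stretch cannot be assigned, so the split between both genes is uncertain. The following windows are shown because they mark where reads can and cannot separate the genes. The first pair is the 120-base window with the most differences, 22 bases, with differing bases in capitals, from base 309 of the Csf2rb and base 312 of the Csf2rb2 coding sequence.
Csf2rb: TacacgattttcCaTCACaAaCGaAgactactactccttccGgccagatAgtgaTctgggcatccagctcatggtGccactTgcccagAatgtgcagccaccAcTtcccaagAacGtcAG
Csf2rb2: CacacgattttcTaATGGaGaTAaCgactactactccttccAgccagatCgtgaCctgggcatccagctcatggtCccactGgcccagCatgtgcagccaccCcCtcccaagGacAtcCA
The longest run shared by both coding sequences, 242 bases, begins at base 2083 of each, in the part that encodes the intracellular tail.
Csf2rb and Csf2rb2: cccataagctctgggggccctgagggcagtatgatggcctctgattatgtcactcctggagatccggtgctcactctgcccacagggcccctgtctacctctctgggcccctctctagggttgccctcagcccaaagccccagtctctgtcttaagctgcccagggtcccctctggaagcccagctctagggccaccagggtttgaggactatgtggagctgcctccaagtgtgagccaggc

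In sorted macrophages Csf2rb2 was at 120, 134 and 28.5 CPM in controls 706, 720 and 775 and at 64.6, 112 and 88.4 CPM in cKO 725, 746 and 867. The ratio of Csf2rb to Csf2rb2 was 1.07, 0.932 and 1.73 in those controls and 1.37, 1.72 and 2.21 in the libraries labelled cKO. Ratios thus overlapped between groups, with control 775 among the higher values.

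The ligand genes differed sharply in level. Csf1 (chromosome 3, minus strand, 107741048 to 107760469) was at 20.4, 86.9 and 46.2 CPM in macrophages of controls 706, 720 and 775 and at 61.8, 107 and 130 CPM in cKO 725, 746 and 867. The lowest library was control 706 and the highest cKO 867, and control 720 lay above cKO 725, so the groups overlapped. Il34 (chromosome 8, minus strand, 110741829 to 110805924) was listed at 0 in 5 of the 6 macrophage libraries, which allows up to 0.119 to 0.208 CPM (3 reads, counting error only). In those 5 libraries, however, 31.2% to 56.4% of genes that averaged 1 to 2 CPM elsewhere also had under 3 reads, so a listed 0 is a weaker limit than counting error alone gives. That share was lowest, 25.4%, in control 775, where Il34 was at 0.696 CPM, or 16 reads. Il34 was too low in macrophages for the test, which took genes with a table mean of at least 1 CPM.

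**Figure D1:**
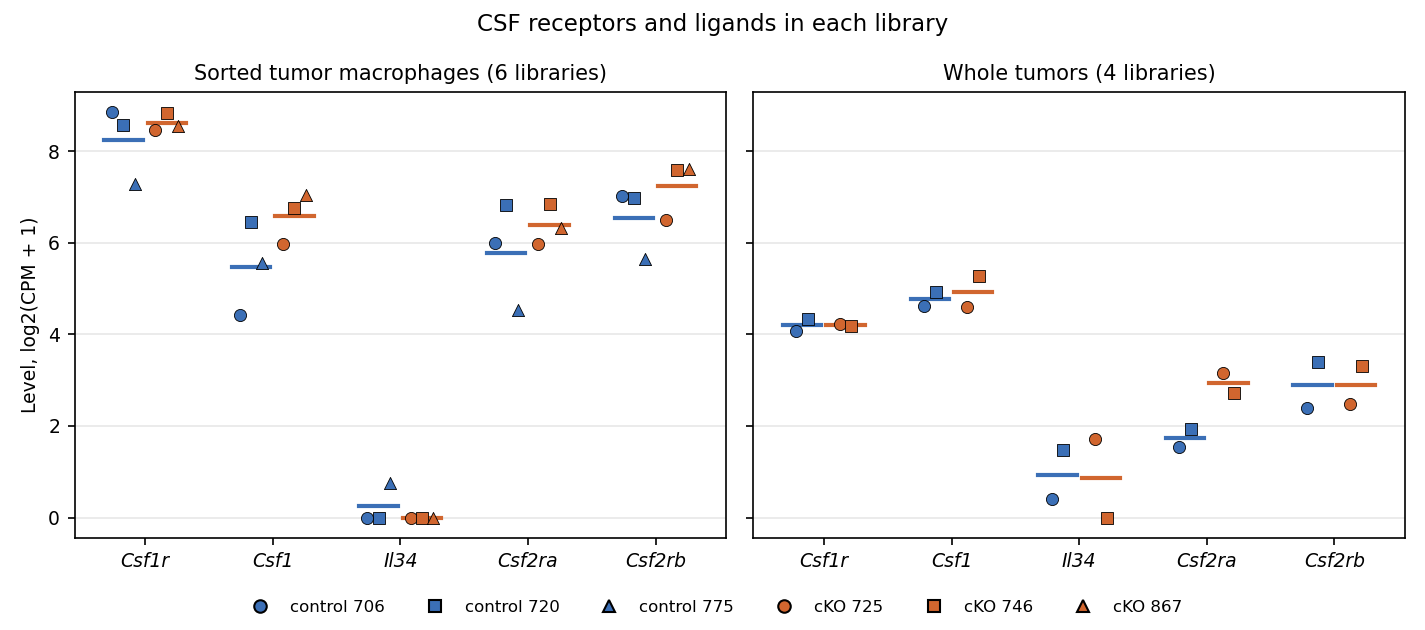
Level of each gene, log2(CPM + 1), in the 6 macrophage libraries and the 4 tumor libraries, by mouse; horizontal bars are group means. In macrophages control 775 is the lowest library for Csf1r, Csf2ra and Csf2rb but not for Csf1, and Il34 is at 0 in 5 of 6.

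Levels of different genes were compared per kilobase of the longest coding transcript. In macrophages the order was Csf1r (76.7 ± 23.4 CPM per kb, SD, n = 6), Csf2ra (40.8 ± 18.9), Csf2rb (26.5 ± 11.7), Csf1 (18.0 ± 9.69) and Il34 (0.0646 ± 0.158). Csf1r lay above Csf2ra and Csf2ra above Csf2rb in 6 of 6 libraries, although the spreads of Csf2ra and Csf2rb across libraries overlapped. Csf2rb and Csf1 did not differ beyond their spread, with Csf2rb higher in 5 of 6 libraries. In tumors the order changed at the top, to Csf1 (6.79 ± 1.60 CPM per kb, SD, n = 4), Csf1r (3.72 ± 0.309), Csf2ra (2.46 ± 1.46), Csf2rb (1.39 ± 0.560) and Il34 (0.610 ± 0.616). Neighbors below Csf1r did not differ beyond their spread.

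The order of Csf1 and Csf1r RNA was therefore opposite in the 2 kinds of library. Per length, the ratio of Csf1 to Csf1r was 0.0499, 0.259 and 0.336 in macrophages of controls 706, 720 and 775 and 0.199, 0.267 and 0.395 in cKO 725, 746 and 867. In tumors it was 1.68 and 1.71 in controls 706 and 720 and 1.48 and 2.45 in cKO 725 and 746. Every tumor library had more Csf1 than Csf1r and every macrophage library less. This ratio is taken within a library, so it does not depend on how either table was scaled.

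In the 4 mice with both libraries, receptor genes were many-fold higher in the sorted cells than in the tumor. The tables were normalized separately, so these ratios are descriptions with no test. For Csf1r the ratio was 29.1 and 19.6 in controls 706 and 720 and 19.8 and 26.3 in cKO 725 and 746, a geometric mean of 23.3. For Csf2rb it was 30.2 and 13.2 in the controls and 19.2 and 21.7 in the cKO mice, a geometric mean of 20.2. The ratio of Csf2ra was 33.0 and 39.6 in the controls and 7.82 and 20.4 in the cKO mice, a geometric mean of 21.4. Csf1 behaved otherwise, at 0.866 and 2.96 in the controls and 2.67 and 2.85 in the cKO mice, a geometric mean of 2.10.

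As a scale for these ratios, computed on CPM + 1, the median was 18.9 over 9 macrophage markers, 2.25 over 12 epithelial markers, 0.445 over 8 endothelial markers and 0.117 over 10 fibroblast markers. On the same CPM + 1 scale, 0.580% of 13783 genes had a higher ratio than Csf1r, 0.994% than Csf2rb, 1.05% than Csf2ra and 23.6% than Csf1. The 3 receptor genes thus lay within the range of the macrophage markers, 4.12 to 37.2. Csf1, at 2.07, lay between the median over all genes, 1.28, and the top of the epithelial markers, which ran from 0.17 to 6.15. Scaled to protein-coding genes, which took 67.7% to 80.1% of the macrophage libraries and 49.7% to 56.5% of the tumors, the ratios were 16.0 for Csf1r, 14.7 for Csf2ra, 13.9 for Csf2rb and 1.44 for Csf1. Il34 was listed at 0 in the macrophages of all 4 mice and at 0.322, 1.78, 2.28 and 0 CPM in the tumors of 706, 720, 725 and 746.

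**Figure D2:**
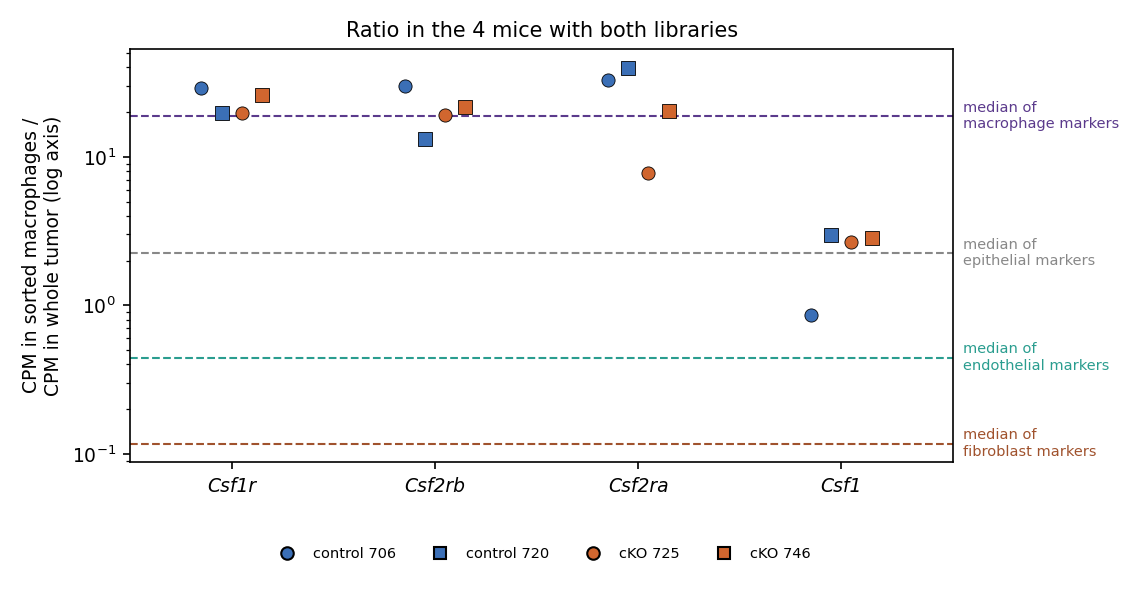
CPM in sorted macrophages divided by CPM in the whole tumor of the same mouse, on a log axis, for 4 mice. Dashed lines are medians, computed on CPM + 1, over marker genes that averaged at least 1 CPM in both macrophages and tumors. Csf1r, Csf2rb and Csf2ra scatter around the macrophage line at 18.9. Csf1 lies at 2.67 to 2.96 in 3 mice and at 0.866 in control 706.

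The macrophage comparison asks whether these genes differ when the myeloid cells are to lack Cxcr4, the receptor of CXCL12. None of the 4 tested genes passed the threshold, a limma adjusted p of 0.05 over 16304 genes, and 0% of all genes passed it (3 genes without control 775, none of them a member). At an unadjusted p under 0.05 stood 1 of the 4 members, Csf1, and 2.63% of all genes (1.53% higher and 1.09% lower in cKO). Csf1 had the largest difference of the 4, 1.11 log2 units (SE 0.39, 95% interval 0.29 to 1.92, limma unadjusted p = 0.0100, adjusted p = 0.9998). Mean Csf1 was 51.2 ± 33.5 CPM over the controls, against 99.6 ± 34.8 CPM over the libraries labelled cKO (SD, n = 3 each). The Csf1 difference was 0.58 without control 706 and 1.60 without control 720, and 0.88 without cKO 867, whose fibroblast, endothelial, monocyte (2309 CPM) and dendritic cell (107 CPM) markers were the highest. The unadjusted p of Csf1 was under 0.05 in 11 of 17 alternatives, and was 0.132 without control 706, 0.0504 without cKO 746, 0.0571 without cKO 867 and 0.0972 without the intensity trend of the variance. That of Csf2rb was under 0.05 in 5 of 18 (limma). Without both 775 and 867 the Csf1 difference was 0.93 (limma unadjusted p = 0.157). Control 706, lowest for Csf1, also had the lowest summed fibroblast, endothelial, monocyte and epithelial markers (70.6, 17.7, 366 and 3886 CPM). The part of these cells in the Csf1 difference was not tested.

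For the receptors, Csf2rb differed by 0.68 (95% interval -0.04 to 1.41), Csf2ra by 0.59 (-0.25 to 1.44) and Csf1r by 0.37 (-0.28 to 1.03), each at a limma adjusted p of 0.9998. All 4 tested genes were thus positive, where 54.7% of all genes were, and 0 of the 4 had every cKO library above every control, as 3.77% of all genes did (3.45% had every cKO library below). Of the 12 macrophage markers, 11 were positive as well, with a median difference of 0.32 against 0.045 over all genes; their part in the members' differences was not tested. Without control 775 the direction turned for Csf1r (-0.10) and Csf2ra (-0.03), and the difference of Csf2rb was 0.24. With Csf2rb and Csf2rb2 summed, the difference was 0.46 (limma adjusted p = 0.9998), and that of Csf2rb2 alone was 0.15.

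**Figure D3:**
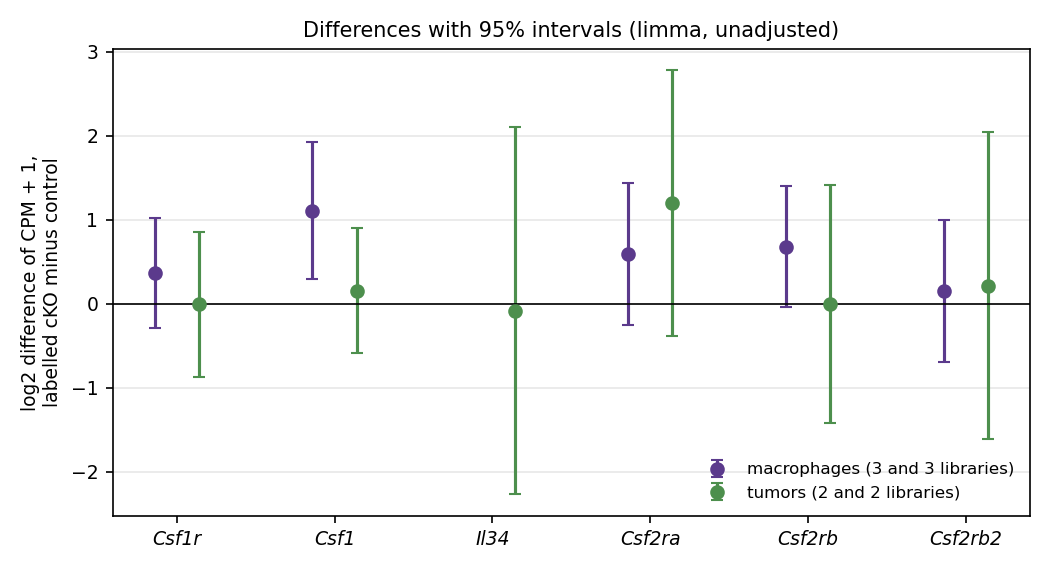
Difference in log2(CPM + 1), labelled cKO minus control, with the unadjusted 95% interval from limma, for the members and Csf2rb2 in macrophages and in tumors. With all libraries, only the interval of Csf1 in macrophages, 0.29 to 1.92, leaves out 0 (unadjusted p 0.132 without control 706); Il34 was not tested in macrophages.

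Since control 775 held fewer macrophage transcripts, the levels were also set against the summed 12 macrophage markers of the same library, an alternative chosen after the data were seen. The sum includes Lyz2, the gene that carries the LysmCre insertion. Csf1r then stood at 23.5%, 17.9% and 16.4% of that sum in controls 706, 720 and 775 and at 19.2%, 19.7% and 18.5% in cKO 725, 746 and 867. Its highest value was 1.43 times its lowest, against 2.96 times for the level in CPM, and control 775, though still lowest, lay close to the others. For Csf2rb this span was 2.00 times instead of 3.95, and for Csf2ra 2.27 instead of 5.16. Csf2ra in control 775 stayed the lowest, at 2.35% against 3.21% to 5.32% in the other 5. Csf1 kept a span of 6.23 times (6.39 in CPM), from 1.04% in control 706 to 6.49% in cKO 867.

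On this scale the group means of Csf1r were 19.3% ± 3.73 in controls and 19.1% ± 0.603 in libraries labelled cKO (SD, n = 3 each). Over all genes this scaling put the median difference at -0.29 instead of 0.045, and by limma the members then differed by 0.0066 (Csf1r), 0.75 (Csf1), 0.24 (Csf2ra) and 0.32 (Csf2rb). An exact permutation test of 3 against 3, two-sided, cannot go below p = 0.1. It gave p = 1 for Csf1r, 0.5 for Csf1, 0.7 for Csf2ra and 0.4 for Csf2rb, and 0.933 to 1 after Benjamini-Hochberg adjustment over the 4 exact tests.

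**Figure D4:**
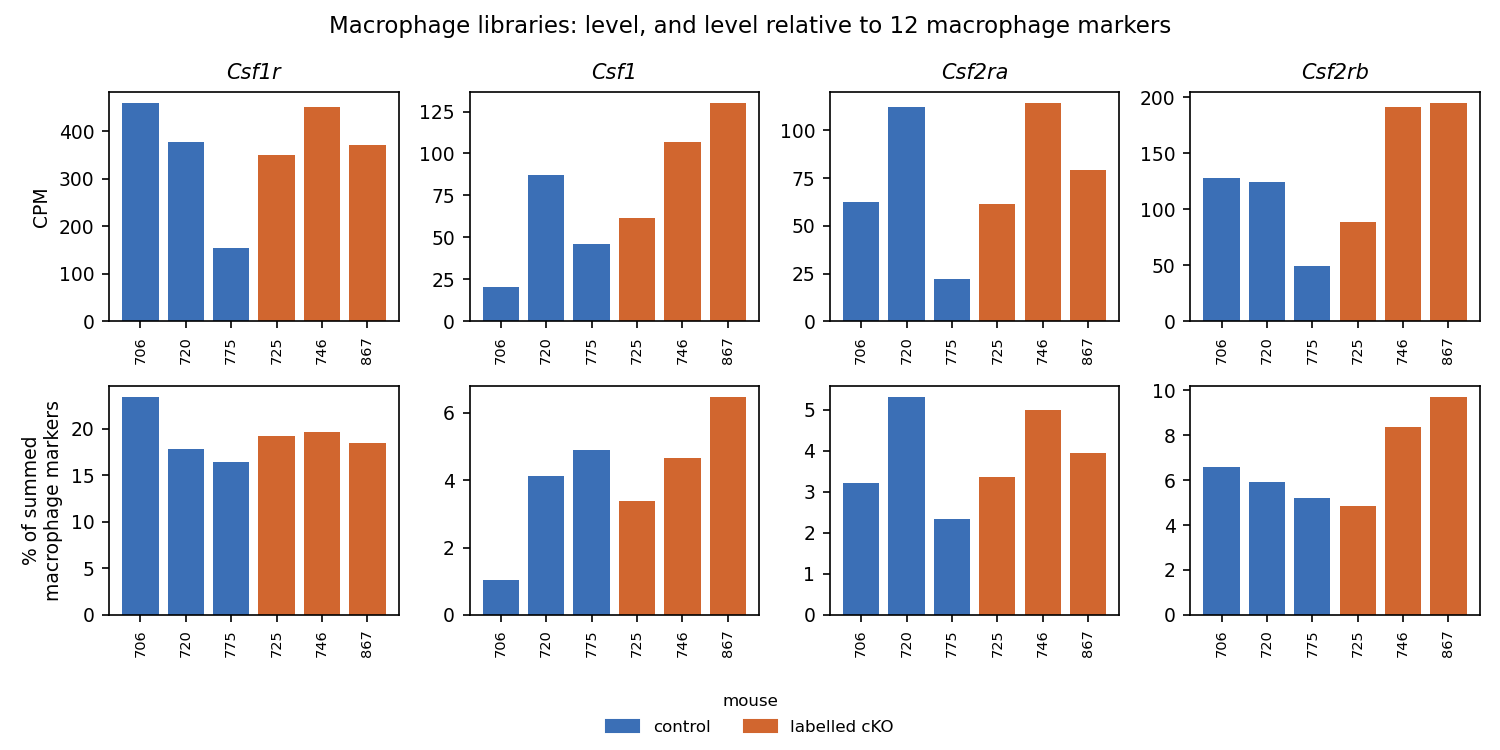
Bars give each macrophage library's CPM (top) and its percentage of the summed CPM of 12 macrophage markers (bottom); axes start at 0. Control 775 is low in the top row for the receptors, while its Csf1r below, at 16.4%, is next to the 17.9% to 19.7% of control 720 and the libraries labelled cKO, and its Csf2ra stays lowest at 2.35%.

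The tumor comparison asks the same of the whole tissue, with 2 libraries a group. Csf1r was at 15.8 and 19.3 CPM in controls 706 and 720 and at 17.6 and 17.2 CPM in cKO 725 and 746. Both cKO values lay between the controls, and the difference was -0.0036 (95% interval -0.87 to 0.86, limma adjusted p = 0.999). Csf1 was at 23.5 and 29.4 CPM in the controls and at 23.1 and 37.4 CPM in the cKO tumors, so the groups overlapped at a difference of 0.16 (95% interval -0.59 to 0.91, limma adjusted p = 0.960).

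Csf2ra was the only member whose tumor groups did not overlap, at 1.90 and 2.84 CPM in controls 706 and 720 and at 7.85 and 5.62 CPM in cKO 725 and 746. Its difference of 1.20 (SE 0.75, 95% interval -0.38 to 2.78) did not pass (limma adjusted p = 0.838). Of all 14630 genes tested in tumors, 21.2% had both cKO libraries above both controls and 14.3% both below. By limma 0% passed the adjusted threshold and 5.85% had an unadjusted p under 0.05 (3.90% higher, 1.95% lower), among them 0 of the 5 members. In the macrophages of the same mice, Csf2ra showed no such order, since control 720 and cKO 746 were level. Csf2rb was at 4.26 and 9.47 CPM in the control tumors and at 4.61 and 8.84 CPM in the cKO tumors. Its difference was 0.0015 (95% interval -1.42 to 1.42), with 720 and 746 high and 706 and 725 low, irrespective of label.

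Il34 was at 0.322 and 1.78 CPM in tumors of controls 706 and 720 and at 2.28 CPM in cKO 725 and 0 in cKO 746. These values stand for 11, 62, 122 and 0 reads. The 0 allows up to 0.0847 CPM by counting error alone, but 37.2% of genes at 1 to 2 CPM in the other 3 tumors also had under 3 reads in cKO 746. The difference was -0.08 (95% interval -2.27 to 2.11, limma adjusted p = 0.994), so at this depth and number of tumors no difference in Il34 was detectable. Summed macrophage markers (11 listed, Aif1 not listed) were at 97.7 to 125 CPM in tumors and overlapped between groups. Summed fibroblast markers were at 833 and 1052 CPM in controls and 529 and 667 CPM in the cKO tumors. Of the 10 fibroblast markers, 5 had both cKO tumors below both controls, as did 14.3% of all genes. By limma 0 of these 10 passed the adjusted threshold.

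Among other genes of the family, the cytokines that act through the common beta chain were weakly read or not listed. Csf2, which encodes GM-CSF, the ligand of CSF2RA, was at 2.23 CPM in macrophages of control 720 and 0.565 CPM in control 775, listed at 0 in the other 4, and not listed in the tumor table. Il3 and Il5, whose receptors use the common beta chain, were listed in neither table. Il3ra, the binding chain for IL-3, was at 1.43 to 6.05 CPM in macrophages and at 0 to 1.29 CPM in tumors. Il5ra was listed at 0 in 4 macrophage libraries and was at 4.18 CPM in control 720 and 2.23 CPM in cKO 867.

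Kit, the stem cell factor receptor and a relative of CSF1R, was at 254 and 280 CPM in tumors of controls 706 and 720 and at 393 and 377 CPM in cKO 725 and 746. The cKO tumors were higher, by 0.53 log2 units, without passing the test (limma unadjusted p = 0.00796, adjusted p = 0.819). Of all genes, 21.2% had both cKO tumors above both controls. In macrophages Kit overlapped, at 146 to 382 CPM, a difference of 0.04. Kit is also a mast cell marker: of the list of 9 mast cell and eosinophil markers, which includes it, 4 were listed in macrophages and 2 in tumors, with sums of 147 to 384 CPM and 254 to 393 CPM. Nearly all of these sums was Kit itself. In the tumor of cKO 725 both were at 393 CPM, and in macrophages of cKO 867 Kit was at 382 of 384 CPM. The sums thus say little of mast cells apart from Kit. The part of mast cells in the Kit levels was not tested. Kitl, which encodes stem cell factor, the ligand of KIT, was at 128 to 241 CPM in macrophages and 180 to 285 CPM in tumors, and differed by -0.24 and 0.32. Of the 15 genes of the family list, 12 were tested in macrophages, with 6 positive and 6 negative differences, and 7 in tumors, with 5 positive and 2 negative. Of all genes, 54.7% were positive in macrophages and 56.6% in tumors. By limma 0 of the list passed the adjusted threshold in either table. At an unadjusted p under 0.05 stood 0 in macrophages (2.63% of all genes) and 1, Kit, in tumors (5.85% of all genes).

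Genes that act downstream of CSF1R, a list of 25 that includes adaptors, kinases and phosphatases, had 19 positive and 6 negative differences in macrophages. Positive there were also 54.7% of all genes and 11 of the 12 macrophage markers, whose part was not tested. The median of the list was 0.17 log2 units, against 0.045 over all genes, and 0 of the list passed the adjusted or the unadjusted threshold (2.63% of all genes the latter). Lyn, a SRC family kinase, was at 188, 239 and 128 CPM in controls 706, 720 and 775 and at 271, 311 and 182 CPM in cKO 725, 746 and 867, a difference of 0.47. Akt1, a survival kinase, differed by 0.50. In tumors 22 of the list were tested, with 11 positive and 11 negative, where 56.6% of all genes were positive. The median of the list was 0.0062, against 0.089 over all genes. By limma 0 of the list passed the adjusted and 2 the unadjusted threshold, which 5.85% of all genes passed. Mapk3, which encodes the kinase ERK1, was at 11.1 and 19.0 CPM in tumors of controls 706 and 720 and at 33.3 and 37.8 CPM in cKO 725 and 746 (difference 1.23, limma adjusted p = 0.760). Both cKO tumors lay above both controls for 21.2% of all genes. Pik3r1, a regulatory subunit of phosphoinositide 3-kinase, differed by 0.40 in tumors.

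Transcription factors that act on Csf1r or share its lineage, 12 genes, had 8 positive and 4 negative differences in macrophages (median 0.20). Of all genes, 54.7% were positive there. Spi1, which encodes PU.1, a factor that binds the Csf1r promoter in myeloid cells, was at 12.6, 18.5 and 3.61 CPM in controls 706, 720 and 775 and at 16.5, 32.5 and 9.30 CPM in cKO 725, 746 and 867. Control 775 was the lowest, as for the receptors. Egr2, an immediate early factor, differed by -0.55. In tumors 11 were tested, 7 positive and 4 negative (median 0.12, with 56.6% of all genes positive), with Cebpb at -0.62 and Fli1 at -0.60. By limma 0 of the list passed the adjusted threshold in either table. An unadjusted p under 0.05 was reached by 0 in macrophages (2.63% of all genes) and 1, Cebpb, in tumors (5.85% of all genes).

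The list for GM-CSF receptor signaling and its STAT5 response, 16 genes, had 10 positive and 5 negative differences among 15 tested in macrophages (median 0.12). Of all genes, 54.7% were positive there. Irf4, a factor of GM-CSF dependent macrophages and dendritic cells, was at 4.45, 8.23 and 17.4 CPM in controls 706, 720 and 775 and at 12.5, 13.7 and 69.3 CPM in cKO 725, 746 and 867. The high library was cKO 867. Its summed monocyte markers also stood apart (2309 CPM, against 366 to 912 in the other 5), as did its dendritic cell markers (107 CPM, against 32.1 to 57.1). Its summed fibroblast markers were the highest as well (1403 CPM), and of the 8 monocyte markers 5 had positive and 3 negative differences. The part of these cells was not tested. The Irf4 difference was 1.30 (limma unadjusted p = 0.0382, adjusted p = 0.9998). Socs3, a feedback inhibitor of JAK signaling, differed by 0.37. In tumors 13 were tested, 6 positive and 7 negative (median -0.11), where 56.6% of all genes were positive. Stat5a, which acts downstream of the common beta chain and also of the prolactin receptor in mammary epithelium, was at 21.2 and 21.1 CPM in tumors of controls 706 and 720 and at 37.6 and 40.1 CPM in cKO 725 and 746. Its difference of 0.85 did not pass (limma adjusted p = 0.819), and Cish, a STAT5 target, differed by -0.66. For Stat5a both cKO tumors lay above both controls, as for 21.2% of all genes. By limma 0 of the list passed the adjusted threshold in either table, with 1 in each, Irf4 and Stat5a, under an unadjusted p of 0.05. Of all genes, 2.63% in macrophages and 5.85% in tumors were under it.

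The genes most like each member over the 6 macrophage libraries were taken as the 3 with the highest Pearson r in log2(CPM + 1) among 8051 protein-coding genes at 10 CPM or more. The libraries share their depth and their macrophage content with every gene, and these r are maxima over many genes, so they serve as a description only. For Csf1r these were Il10ra, the IL-10 receptor chain of leukocytes, Rilpl2 and Prkcd, at r of 0.998, 0.996 and 0.995. Il10ra was at 209, 182 and 90.4 CPM in controls 706, 720 and 775 and at 166, 214 and 178 CPM in cKO 725, 746 and 867, with control 775 lowest as for Csf1r.

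For Csf2ra the 3 genes were Clcf1, Ifi30, a lysosomal thiol reductase of antigen presenting cells, and Epc1, at r of 0.996, 0.995 and 0.992. For Csf2rb they were Trim25, Arnt and Poldip3, at r of 0.991, 0.989 and 0.986. Those of Csf1 were Dcaf11, Ipo4 and Arih2, at r of 0.994, 0.993 and 0.989. Between 1.90% and 3.24% of the 8051 genes had an r over 0.9 with a given member. Among the members themselves, r was 0.853 to 0.879 between the 3 receptor genes and 0.114 to 0.491 between Csf1 and each of them, over the same 6 libraries.

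Promoter sequence was read for the motif GAGGAA, the core bound by PU.1, which Spi1 encodes, on both strands (TTCCTC on the other). The receptor genes and Spi1 were all lowest in control 775, as was the macrophage marker sum (944 CPM). Any link between them was not tested. RefSeq sequences of the 250 bases before the start (GRCm38.p6) were read for Csf1, Csf2ra and Csf2rb2, with no entry for Csf1r, Il34 and Csf2rb. Of 27025 promoters, 23.1% held the motif in this window, and matches are given as letters, not as sites of binding. Matches are in capitals.
Csf2ra (chr19:61228419-61228668, minus strand), with 2 matches: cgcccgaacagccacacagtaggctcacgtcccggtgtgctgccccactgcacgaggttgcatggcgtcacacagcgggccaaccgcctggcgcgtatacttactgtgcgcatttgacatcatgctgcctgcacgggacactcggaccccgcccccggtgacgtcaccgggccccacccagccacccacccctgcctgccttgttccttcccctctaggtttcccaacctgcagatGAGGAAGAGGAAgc
Csf2rb2 (chr15:78305722-78305971, minus strand), with 1 match: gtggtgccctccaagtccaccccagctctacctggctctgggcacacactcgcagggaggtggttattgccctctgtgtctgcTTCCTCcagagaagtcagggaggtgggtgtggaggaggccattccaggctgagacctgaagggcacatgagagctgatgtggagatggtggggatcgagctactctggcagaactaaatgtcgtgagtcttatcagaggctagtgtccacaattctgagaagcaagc
Csf1 (chr3:107760470-107760719, minus strand), with 0 matches: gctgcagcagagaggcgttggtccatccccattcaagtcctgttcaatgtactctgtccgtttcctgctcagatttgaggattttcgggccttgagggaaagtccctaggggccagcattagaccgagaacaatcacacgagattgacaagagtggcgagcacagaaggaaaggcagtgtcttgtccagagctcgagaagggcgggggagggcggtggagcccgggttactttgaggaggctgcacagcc
The matches of Csf2ra begin 14 and 8 bases before the RefSeq start, side by side, and that of Csf2rb2 begins 167 bases before its own. The 2 annotations place the start of Csf2ra differently: the window reaches 11 bases into the GENCODE gene span given above. By that span, the match at 8 bases lies wholly inside the gene, and the match at 14 bases lies across its start, with 3 of its bases inside.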

How the data were processed

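Libraries were made from total RNA with a FastSelect kit against ribosomal RNA, per the labels' protocols. The submitters' processing notes name STAR 2.7.8a, Partek and the build GRCm38 (mm10), and how reads were counted is not given in the sources used here. The deposited values were read as log2(CPM + 1), because undoing that transform gave a sum of 1000000 CPM in every library. At low values, 83.0% to 89.7% came out whole within 0.1 read, under the 95% required, so no count test was run. Gene positions come from GENCODE vM21 by gene identifier, since the deposited positions are not those of GRCm38.

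Macrophage and tumor tables were fitted separately (limma 3.58.1, R 4.3.3, eBayes with an intensity trend), keeping genes whose table mean reached 1 CPM, two-sided, Benjamini-Hochberg adjusted over all of them; the script was tested on simulated data. Exact tests used SciPy 1.17.1 and alignments Biopython 1.88. Replicates are separate mice. Alternatives were other pseudocounts, filters, scalings, variance settings and library weights, and each library left out. Besides the members, named genes were every other family gene, the 2 lowest unadjusted p per signaling list and table, and the 3 most like each member. The members and lists were chosen with earlier results of these data known.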

Additional observations from a re-analysis of the deposited data

How the results depend on the processing

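No paired analysis was possible because the groups compared within each table hold different mice and the labels name no partners for the size-matched tumors, while the tables that share mice were normalized separately. No member passed the adjusted threshold under any alternative run (lowest limma adjusted p 0.668), and the number of genes past it stayed at 0 except without control 775 in macrophages, where it was 3 (0 with all libraries, limma). In macrophages, 65 of 69 recomputed member differences kept their direction. Those of Csf1r and Csf2ra turned to -0.10 and -0.031 without control 775, and to -0.069 and -0.0032 in the 4 mice that also gave a tumor library, an alternative added after the data were seen. With a library left out, the differences ran from -0.10 to 0.68 for Csf1r, 0.58 to 1.60 for Csf1, -0.031 to 1.11 for Csf2ra and 0.24 to 1.05 for Csf2rb.

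In tumors, 52 of 64 kept their direction, and those that turned belong to members whose differences lay between -0.08 and 0.16. Csf2rb turned to -0.0055 with a pseudocount of 5, -0.052 with TMM factors, -0.072 with median-ratio factors and -0.11 scaled to protein-coding genes. Il34 turned to 0.0071 with a pseudocount of 5. With a library left out, differences ran from -0.14 to 0.13 for Csf1r, -0.18 to 0.49 for Csf1, -0.94 to 0.78 for Il34, 0.99 to 1.41 for Csf2ra and -0.50 to 0.50 for Csf2rb. Leaving out control 706 gave -0.50 for Csf2rb. Leaving out control 720 gave 0.13 for Csf1r and 0.46 for Il34. Leaving out cKO 746 gave 0.015, -0.18, 0.78 and -0.40 for Csf1r, Csf1, Il34 and Csf2rb. In these fits 1 group holds a lone library, assumed to vary like the other.

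Scaled to protein-coding genes, the macrophage to tumor ratio was 16.0 for Csf1r and 13.9 for Csf2rb. By the union of all exons, Csf1r in tumors was at 3.03 CPM per kb, with the order of the members as given. Both follow from the divisor. Protein-coding genes took a smaller share of the tumor libraries, and the union of Csf1r exons is longer than the transcript (5774 against 4701 bases). By limma, an unadjusted p under 0.05 was reached in 11 of 17 macrophage alternatives for Csf1, 5 of 18 for Csf2rb, 1 of 17 for Csf2ra and 0 of 17 for Csf1r, and in tumors in 1 of 12 for Csf2ra and in none for the other members. Each comparison rests on 2 or 3 mice a group. Values of 0 are less certain than depth alone would make them, since 25.4% to 56.4% of genes at 1 to 2 CPM elsewhere had under 3 reads in a macrophage library.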

Other observations

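Other proteins reported to bind IL-34 were read at very different levels. Trem2, a lipid receptor of tumor macrophages, was at 106, 59.1 and 18.3 CPM in macrophages of controls 706, 720 and 775 and at 56.5, 34.8 and 31.7 CPM in cKO 725, 746 and 867, but had only 3 to 5 reads in each of the 4 tumor libraries. Csf1r, likewise a macrophage gene, was at 15.8 to 19.3 CPM in those tumors. Syndecan-1 (Sdc1), a proteoglycan of epithelial and plasma cells, was at 195 to 460 CPM in macrophages and 100 to 151 CPM in tumors, and the phosphatase gene Ptprz1 at 1.95 to 16.0 and 10.4 to 45.0 CPM.

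Csf3r, the receptor of the neutrophil growth factor G-CSF, was at 24.6, 50.5 and 13.4 CPM in macrophages of controls 706, 720 and 775 and at 24.6, 39.7 and 18.9 CPM in cKO 725, 746 and 867 (difference 0.04, limma adjusted p = 0.9998). In tumors it was uneven, at 47 and 2 reads in controls 706 and 720 and at 220 and 1 in cKO 725 and 746. Csf3, its ligand, was listed at 0 in control 706 and at 1.25 to 4.65 CPM in the other 5 macrophage libraries. Flt3, the receptor of dendritic cell progenitors, was listed at 0 in 3 macrophage libraries and reached 5.76 CPM in cKO 867, and its ligand gene Flt3l was at 1.07 to 8.96 CPM in macrophages and 1.16 to 5.30 CPM in tumors.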
